A study of Mus musculus with 33 samples.

Results

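Transcripts were followed through the first 2 h of actinomycin D in wild-type mouse neural stem cells. The comparison holds 6 of the 33 libraries of the study, the 3 WT libraries at 2 h and the 3 WT libraries at 0 h, chosen by their labels and not by any measured value. The cells were hippocampal neural stem cells from mice at postnatal day 0.5, grown on poly-D-lysine in medium with B27, N2, bFGF and EGF. All 6 libraries carry the label Nestin-WT for Ythdf2 and an actinomycin D label of 5 µM, also at 0 h, and differ in the labelled time. Beside them, the comparison draws on 3 WT libraries at 4 h, on 3 libraries each at 2 h and 0 h labelled Nestin-cKO (a conditional knockout of Ythdf2 in cells that use the Nestin promoter), and on pull-downs from WT cells: 3 m6A pull-downs with 3 inputs, and 3 YTHDF2 pull-downs with 3 IgG pull-downs and 3 inputs. No label tells whether the 3 replicates are cultures of separate animals. Xist was high in replicate 1 and the Y-linked Ddx3y in replicates 2 and 3. Replicate 1 thus had a female pattern and the others a male one. The p-values measure spread between libraries, estimated over all 18 RNA-seq libraries together. These include 3 cKO-labelled libraries at 4 h, so the spread is not that of the 6 compared libraries alone.

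Actinomycin D binds DNA and blocks transcription, so that a transcript made before the block is lost at the pace of its own decay. Messenger RNAs of signal-responsive genes usually carry elements that recruit deadenylases and decapping enzymes and decay within minutes to hours, whereas those of ribosomal and mitochondrial proteins are among the most stable. N6-methyladenosine, or m6A, is a methyl mark on adenosine in mRNA, and its cytoplasmic reader YTHDF2 brings marked mRNA to the decay machinery. No spike-in was recorded in the labels, so every level here is relative to the other transcripts of its library: a stable transcript takes a larger share of the library as others are lost, and a rise need not be new RNA.

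Total counts were 13534935 to 20124800 in the WT 2 h libraries and 11100782 to 16244456 in the WT 0 h libraries. The libraries held transcripts of neural stem cell markers. The summed level of Sox2, Nes, Vim, Fabp7, Slc1a3 and Pax6 was 18300 to 20900 CPM (a gene's counts scaled to a fixed library size with TMM factors) at 2 h and 12600 to 14500 CPM at 0 h. Most of it was Fabp7 (means of 12300 CPM at 2 h and 8290 at 0 h) and Slc1a3 (6390 and 4530), also an astrocyte marker. Vim averaged 667 CPM at 2 h and 641 at 0 h, and Nes 48.7 and 40.6. Sox2 (19.4 and 74.5) and Pax6 (24.7 and 33.8) went the other way. The microglial markers Tmem119, C1qa, C1qb, Trem2 and Tyrobp, the endothelial markers Cldn5 and Tie1 and the ependymal marker Tmem212 had no count in any of the 6 libraries. In these bulk libraries, fewer cells of a type and less RNA per cell cannot be told apart. The 0 h libraries stood apart from the 12 libraries at 2 h and 4 h in a few genes. The pseudogenes Gm6404 and Gm11810 and the gene Rpl39l had at most 1 count in each of the 6 libraries at 0 h, WT and cKO-labelled, and at least 5 in every library at 2 h and 4 h. The 15 pull-down and input libraries held at most 2 counts of any of these 3 genes. The labels give no library batch, so a difference in library making between 0 h and the later times cannot be told apart from time.

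Of 14029 genes tested, 1926 (13.7%) were lower at 2 h than at 0 h and 509 (3.63%) were higher in edgeR's quasi-likelihood test at a Benjamini-Hochberg adjusted p of 0.05, and 11594 did not pass. The falls were larger than the rises. Among the genes that fell, 199 fell by more than 8-fold, 404 by 4- to 8-fold, 944 by 2- to 4-fold and 379 by less than 2-fold. Of those that rose, 430 rose by less than 2-fold, 52 by 2- to 4-fold and 27 by more than 4-fold. The 3 values at 2 h all lay below the 3 values at 0 h in 4146 genes (29.6%) and all above them in 3496 genes (24.9%).

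With the culture as a block, 2835 genes (20.2%) were lower and 1910 (13.6%) higher, and the sets held 1925 of the 1926 falls and all 509 rises. The number of higher genes moved with the scaling and the tool, with 162 by library size alone, 27 when libraries were scaled to the ribosomal protein genes, and 1124 in DESeq2. The median log2 change over all genes was 0.0061 with TMM scaling, −0.14 by library size alone and −0.40 with ribosomal protein scaling, and the shares of called genes that were lower came to 79.1%, 93.7% and 99.2%. That share was 69.9% with RLE factors, 65.4% in DESeq2, 59.7% with the culture as a block, 55.1% in the 6 compared libraries alone and 52.3% in those with the block. Without WT 2 h replicate 1, 1189 genes were lower. The number of higher genes was 164 to 224 when any library other than WT 2 h replicate 1 was left out, and 380 without that library.

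**Figure D1:**
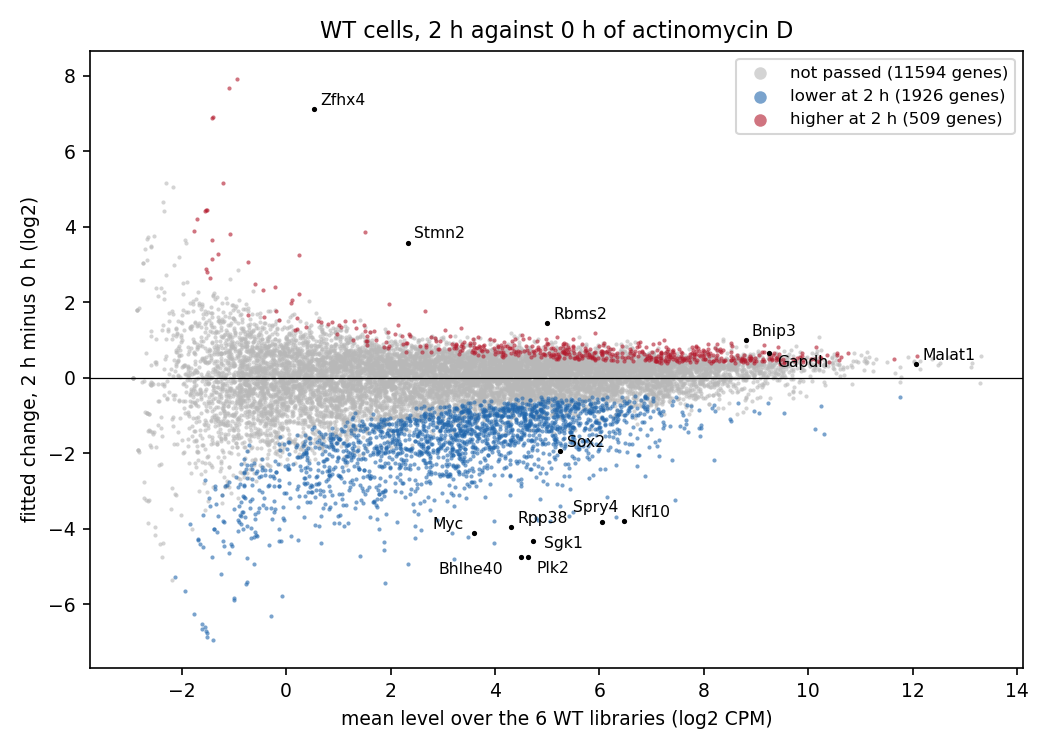
Fitted log2 change of each of the 14029 tested genes at WT 2 h against WT 0 h (vertical axis) against its mean log2 CPM over the 6 libraries (horizontal axis, log2 scale), with called genes in colour and named genes marked. The 1926 falls reach far below −4, while most of the 509 rises lie under 1, and the rises above 4, like the deepest falls, belong to genes with few or no counts at one time, whose fitted size depends on the prior count.

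By a rule that took the 10 largest falls among well-expressed genes with groups that did not overlap, the named genes were Bhlhe40, Plk2, Sgk1, Rpp38, Spry4, Klf10, Rasl11a, Spry2, Rgs4 and Rnd3, with log2 changes of −4.75 to −3.70. Bhlhe40, a basic helix-loop-helix repressor tied to the circadian clock, had 3.91, 4.33 and 4.71 CPM at 2 h, against 120.2, 127.2 and 102.9 CPM at 0 h. It kept 3.70% of its 0 h level (log2 change −4.75 ± 0.35 SE, adjusted p = 3.185e-07). Plk2, a polo-like kinase, had 6.47, 3.17 and 5.03 CPM at 2 h, against 166.9, 105.2 and 121.1 CPM at 0 h, a log2 change of −4.73 ± 0.48 SE (adjusted p = 4.129e-06). For both genes the lowest 0 h library was more than an order of magnitude above the highest 2 h library. Sgk1, a serum- and glucocorticoid-induced kinase, had 4.14, 6.73 and 7.07 CPM at 2 h, against 101.5, 126.0 and 133.4 CPM at 0 h. Klf10, a zinc finger factor first known as an early TGF-beta response gene, had 25.5, 19.2 and 27.6 CPM at 2 h, against 381.3, 272.4 and 354.7 CPM at 0 h, a log2 change of −3.80 ± 0.27 SE (adjusted p = 2.866e-07). Because the rule required groups that did not overlap, the separation of the 2 h and 0 h libraries is no result for these 10 genes. Rnd3, an atypical small GTPase that loosens actin fibres, had 17.6, 26.5 and 22.6 CPM at 2 h, against 241.1, 335.8 and 287.4 CPM at 0 h. Rpp38, a protein subunit of RNase P, was the one gene of the 10 with a role in RNA processing, and had 4.26, 4.10 and 6.70 CPM at 2 h, against 70.2, 85.5 and 79.3 CPM at 0 h.

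Here and below, promoter searches used the RefSeq promoter table (GRCm38.p6) without the chromosome that holds Spry4. They covered 7 of these 10 genes, and Spry4 was left out by that choice. Of the 7, 4 held TGACG, the core of the cyclic AMP response element, on either strand within the 150 bases before the start. These 4 are shown because they are the largest of the searched falls with that motif. They are read 5′ to 3′ on the gene's strand, with TGACG or its reverse complement CGTCA in capitals (the whole palindrome TGACGTCA where both overlap). They lie at chr13:110394894-110395043, chr2:3332629-3332778, chr5:146844921-146845070 and chr1:169747643-169747792, on the plus, minus, plus and minus strands.
Plk2: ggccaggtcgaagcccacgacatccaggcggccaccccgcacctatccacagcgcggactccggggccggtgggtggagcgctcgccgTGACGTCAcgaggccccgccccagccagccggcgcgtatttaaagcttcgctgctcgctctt
Rpp38: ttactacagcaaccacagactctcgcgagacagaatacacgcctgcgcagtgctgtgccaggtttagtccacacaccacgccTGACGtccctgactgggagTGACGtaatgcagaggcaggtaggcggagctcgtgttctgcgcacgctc
Rasl11a: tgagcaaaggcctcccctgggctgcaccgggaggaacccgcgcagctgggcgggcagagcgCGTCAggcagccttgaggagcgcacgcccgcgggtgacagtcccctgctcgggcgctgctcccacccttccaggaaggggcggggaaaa
Rgs4: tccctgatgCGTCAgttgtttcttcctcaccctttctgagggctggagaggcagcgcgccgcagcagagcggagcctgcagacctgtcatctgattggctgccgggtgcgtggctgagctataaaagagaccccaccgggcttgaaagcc
TGACG was in 16.8% of the 119 searched promoters of genes that fell by more than 8-fold. It was in 21.1% of the 9655 searched promoters of genes tested and 13.5% of all 27025 promoters searched. Among the immediate early factors listed next it was in 10 of 25 promoters (40.0%). It was also in 21 of 60 promoters of ribosomal protein genes (35.0%), a list with no falls. The shares were 23.7% for all genes that fell and 20.9% for those that rose.

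Immediate early transcription factors, which are switched on by signals without new protein synthesis, showed one of the deepest losses of the 34 lists described. Of 34 tested members, 21 were lower (61.8%, against 13.7% of all genes tested) and none higher. The median log2 change was −2.65, beside 0.0061 over all genes. Egr1 had 1.29 ± 0.694 CPM at 2 h and 23.8 ± 2.09 CPM at 0 h (SD, n = 3 each), a log2 change of −4.23 ± 0.39 SE. Myc, a driver of growth and proliferation, had 4.08, 1.78 and 2.93 CPM at 2 h, against 59.2, 50.1 and 44.3 CPM at 0 h, and kept 5.72% (adjusted p = 4.129e-06). Klf6 had the smallest adjusted p of the list, with 11.6, 11.1 and 12.8 CPM at 2 h, against 144.5, 150.6 and 158.4 CPM at 0 h (log2 change −3.67 ± 0.21 SE, adjusted p = 3.477e-08). Among the AP-1 subunits, log2 changes were −3.92 for Fosl2, −2.91 for Fos and −2.71 for Jun. Jund, an AP-1 subunit that is usually present without stimulation, had 5.04 ± 1.01 CPM at 2 h and 5.30 ± 0.448 CPM at 0 h and did not pass (adjusted p = 0.936). Klf9 was at the shallow end of the members that fell, with a log2 change of −1.17.

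Several feedback inhibitors of the ERK pathway fell. The pathway's feedback inhibitors include the Sprouty and Spred proteins, which restrain receptor tyrosine kinases, and the dual-specificity phosphatases, which dephosphorylate MAP kinases. Of 26 tested members of the ERK feedback and ETS list, 16 were lower (61.5%) and 1 was higher (3.85%), with a median log2 change of −2.37. Over all genes tested, the shares were 13.7% and 3.63%. Spry4 had 18.1, 17.0 and 17.5 CPM at 2 h, against 274.5, 224.7 and 248.6 CPM at 0 h (log2 change −3.83 ± 0.28 SE, adjusted p = 3.185e-07). Dusp6, an ERK-selective phosphatase, had 1.63, 1.47 and 2.04 CPM at 2 h, against 60.5, 42.2 and 42.3 CPM at 0 h (log2 change −4.80 ± 0.40 SE). No 2 h library reached the level of any 0 h library in these 2 genes, which for Spry4 was a condition of the naming rule. Dusp10 had a log2 change of −4.10, Spry2 of −3.77, Spry1 of −3.02 and Errfi1, an inhibitor of the EGF receptor, of −2.98. The ETS factor Etv4 was the member that rose (log2 change 0.80, adjusted p = 0.04219), and it did not pass when any one of the 6 libraries was left out. Among growth factor receptors, 2 of 23 were lower (8.7%, against 13.7% of all genes tested), with a median of −0.19. These were Met, with a log2 change of −3.04, and Ephb3, with −2.49. Ephb3 was rare, with 4, 11 and 8 counts at 2 h, against 39, 35 and 47 counts at 0 h.

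C2H2 zinc finger genes, a large family of mostly repressive DNA-binding factors, were the list with the highest share of falls. Of 79 tested members, 60 were lower (75.9%, against 13.7% of all genes tested) and none higher, and the median log2 change was −1.68. The falls were even between replicates. Zfp87 had 8.63, 6.97 and 8.22 CPM at 2 h, against 47.0, 44.2 and 50.2 CPM at 0 h (log2 change −2.57 ± 0.20 SE, adjusted p = 5.161e-07). Zfp189 fell further, with 4.90, 4.18 and 4.82 CPM at 2 h, against 45.6, 40.7 and 38.3 CPM at 0 h. Zfp68, among the better expressed members and chosen after its values were seen, had 42.1 ± 5.12 CPM at 2 h and 162.2 ± 7.47 CPM at 0 h. The family arose by duplication and its members share sequence, so reads could be split between near-identical copies. Their promoters held CCGGAA, a core of ETS binding motifs searched on both strands, in 25 of 66 (37.9%). It was in 17.3% of the promoters of genes tested, and in 21 of 60 promoters of ribosomal protein genes (35.0%), a list with no falls. Histone modifiers, the enzymes that write and erase chromatin marks, also fell in part. Of 46, 21 were lower (45.7%, against 13.7% of all genes tested) and none higher, with a median log2 change of −0.69. Setd2, which trimethylates histone H3 at lysine 36, had 29.6, 24.4 and 25.2 CPM at 2 h, against 112.6, 107.8 and 116.3 CPM at 0 h (log2 change −2.09 ± 0.21 SE, adjusted p = 4.468e-06). Kdm2a had a log2 change of −1.62, Kdm6a of −1.71 and Eed, a subunit of the Polycomb repressive complex, of −1.31. Without WT 2 h replicate 1, 10 of the 46 were lower.

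Receptors, SMADs and inhibitors of TGF-beta signalling were among the falls. In the TGF-beta list, 15 of 28 tested genes were lower (53.6%, against 13.7% of all genes tested), with a median log2 change of −1.05. Only 1 was higher (3.57%, near the 3.63% of all genes tested), Ltbp3, which binds latent TGF-beta, named after its values were seen. The number lower was 9 when any one of the 2 h libraries was left out. Among ligands, Tgfb2 had 68.2, 81.6 and 76.5 CPM at 2 h, against 55.3, 65.4 and 61.2 CPM at 0 h, and did not pass (log2 change 0.32, adjusted p = 0.365); it passed with the culture as a block (adjusted p = 0.03769), and its change took the other sign with ribosomal protein scaling (−0.09). Tgfb1 had no count in these 6 libraries. Among receptors, Tgfbr1, the type I receptor kinase, had 27.1 ± 2.08 CPM at 2 h and 55.9 ± 2.98 CPM at 0 h (log2 change −1.04 ± 0.21 SE, adjusted p = 0.002273). Tgfbr2, the type II receptor, was rare, with 2, 2 and 1 counts at 2 h, against 26, 12 and 48 counts at 0 h, and Tgfbr3 did not pass and overlapped between the times. Among the SMADs that carry the signal to the nucleus, Smad2 (log2 change −1.08) and Smad3 (−1.02) fell, and Smad3 did not pass without WT 2 h replicate 1. Smad4, their common partner, had 21.7 ± 1.27 CPM at 2 h and 28.2 ± 0.530 CPM at 0 h and did not pass (adjusted p = 0.2711). Among inhibitors of the pathway, the co-repressor Skil had 20.5, 21.7 and 17.96 CPM at 2 h, against 55.4, 73.9 and 56.0 CPM at 0 h, and kept 32.4%. Tgif1, another co-repressor, kept 18% (adjusted p = 0.00131), and the ubiquitin ligase Smurf2 kept 54.7%. Smad7, the inhibitory SMAD, had 2, 0 and 0 counts at 2 h, against 8, 4 and 15 counts at 0 h, and passed at an adjusted p of 0.01183, but not without WT 0 h replicate 3 or without WT 2 h replicate 2 or 3. The co-repressor Ski did not pass (adjusted p = 0.09899).

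In the BMP and Id list, 5 of 19 genes were lower (26.3%, against 13.7% of all genes tested) and none higher, with a median of −0.28. The Id genes, which block differentiation by binding basic helix-loop-helix factors, fell to unequal degrees. Id2 had 126.2 ± 19.2 CPM at 2 h and 342.9 ± 47.9 CPM at 0 h, and Id3 had 5.16 ± 0.690 CPM at 2 h and 27.2 ± 6.22 CPM at 0 h. In the Notch and Wnt list, 10 of 41 were lower (24.4%) and none higher, with a median of −0.79. Hes1, the Notch effector that keeps progenitors undifferentiated, had 2.74, 1.01 and 1.83 CPM at 2 h, against 17.2, 21.0 and 18.2 CPM at 0 h (log2 change −3.31 ± 0.44 SE, adjusted p = 5.919e-05). Hes5, its relative, kept 6.39%, with only 9, 4 and 12 counts at 2 h, and Dll1, a Notch ligand, kept 9.33%. Wnt pathway members that fell were Axin2, a feedback inhibitor, Axin1, the receptors Fzd1 and Lrp6 and the ubiquitin ligase Znrf3, with log2 changes of −2.51, −1.97, −1.96, −1.35 and −1.34.

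Transcription factors that define neural progenitors divided widely. Of 39 tested, 15 were lower (38.5%, against 13.7% of all genes tested) and 1 higher (2.56%, against 3.63%). The median was −0.50, and 9 were lower without WT 2 h replicate 1. Olig2, a factor of the oligodendrocyte lineage and of progenitors, had 17.8, 12.9 and 21.9 CPM at 2 h, against 109.2, 90.2 and 120.8 CPM at 0 h (log2 change −2.60 ± 0.35 SE, adjusted p = 5.478e-05). Foxo1 had 8.05, 10.7 and 9.63 CPM at 2 h, against 36.3, 39.9 and 37.5 CPM at 0 h, and Sox2, the factor that keeps stem cell identity, had 18.7, 20.3 and 19.2 CPM at 2 h, against 68.1, 77.4 and 78.1 CPM at 0 h. The 2 h and 0 h libraries did not overlap in any of these 3 genes. Sox9 was the most abundant member that fell, with 706.3 ± 140.4 CPM at 2 h and 1817 ± 257.1 CPM at 0 h, and did not pass without WT 2 h replicate 1. Nfix, a factor tied to stem cell quiescence, rose (log2 change 0.78, adjusted p = 0.01966), but did not pass without WT 0 h replicate 2 or 3 or WT 2 h replicate 2.

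**Figure D2:**
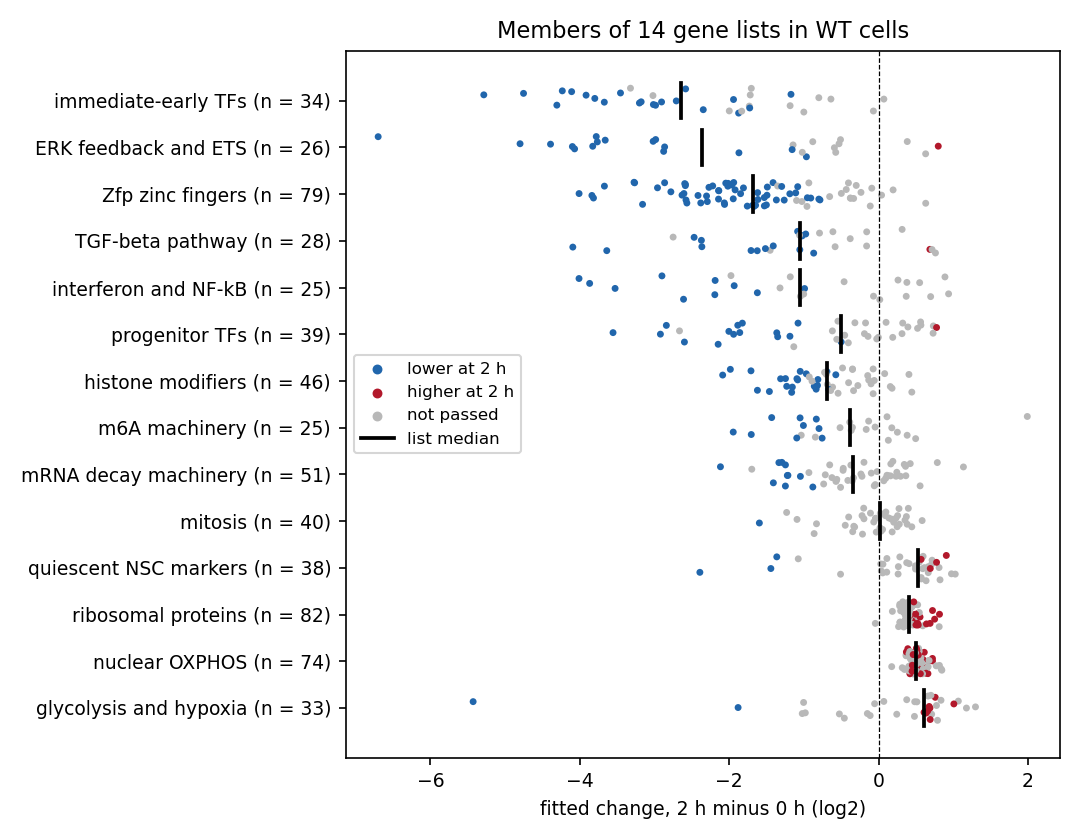
Fitted log2 change at WT 2 h against WT 0 h (horizontal axis) for each tested member of 14 of the gene lists, with called members in colour and the list's median as a bar. The immediate early, ERK feedback and zinc finger lists lie to the left of 0, with medians of −2.65, −2.37 and −1.68, and the ribosomal protein and nuclear OXPHOS lists lie to the right, with medians of 0.41 and 0.51.

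Some factors of mRNA decay and of m6A also fell. The first list held 16 binders of AU-rich elements and antiproliferative BTG and TOB factors, which recruit the CCR4-NOT deadenylase. Of these, 6 were lower (37.5%, against 13.7% of all genes tested) and none higher, with a median of −0.91. Btg2 had 14.5 ± 1.42 CPM at 2 h and 104.0 ± 6.83 CPM at 0 h, Zfp36l2 had 2.53 ± 0.448 CPM at 2 h and 16.8 ± 1.36 CPM at 0 h, and Tob2 had 1.17 ± 0.414 CPM at 2 h and 10.5 ± 0.528 CPM at 0 h. Of 51 genes of the decay machinery, 10 were lower (19.6%, against 13.7% of all genes tested) and none higher, with a median of −0.34, and 20 were lower and 3 higher with the culture as a block. Those lower were CCR4-NOT subunits (Cnot4 and Cnot2, with log2 changes of −1.22 and −1.05), decapping factors (Dcp1a and Edc3), factors of nonsense-mediated decay (among them Upf2, Smg1, Smg5 and Smg6) and the exosome subunit Exosc3. Of 25 m6A writers, erasers and readers, 9 were lower (36%, against 13.7% of all genes tested) and none higher, with a median of −0.39. The number lower was 3 or 4 when WT 0 h replicate 1 or 3 or any 2 h library was left out. Ythdf2, on chr4:132184916-132212256 (GRCm38.p6), had 74.6 ± 11.7 CPM at 2 h and 243.3 ± 21.4 CPM at 0 h (log2 change −1.70 ± 0.36 SE, adjusted p = 0.002984). Its paralogs Ythdf1 (log2 change −1.43) and Ythdf3 (−0.83) also fell, as did Cbll1, a subunit of the methyltransferase complex (−1.95). Ythdf3 did not pass when any library other than WT 0 h replicate 2 was left out. The catalytic subunit Mettl3 had 35.7, 37.1 and 38.3 CPM at 2 h, against 37.6, 41.5 and 35.6 CPM at 0 h. The 2 groups overlapped and the gene did not pass (log2 change −0.05, adjusted p = 0.9267), and its change was above 0 with RLE factors and in DESeq2. Mettl14, its partner, had 13.0, 11.9 and 9.58 CPM at 2 h, against 18.6, 16.9 and 13.9 CPM at 0 h, and did not pass (adjusted p = 0.157).

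In the interferon and NF-kappaB list, 10 of 25 were lower (40%, against 13.7% of all genes tested) and none higher, with a median of −1.05. The number lower was 6 without WT 2 h replicate 1 or 3. Nfkbia, the inhibitor that NF-kappaB induces, had 1.34, 1.78 and 1.57 CPM at 2 h, against 12.5, 24.4 and 17.3 CPM at 0 h (log2 change −3.53 ± 0.39 SE). The chemokines Ccl2 and Ccl7 had log2 changes of −2.61 and −2.90. In the ATF4 list, 6 of 26 were lower (23.1%, against 13.7% of all genes tested), among them Atf4 (−2.15) and Herpud1 (−2.81). Without WT 0 h replicate 2 or any one 2 h library, 3 were lower. In the p53 list, 5 of 28 were lower (17.9%, near the 13.7% of all genes tested), with a median of −0.06, including Btg2, Mdm2 and Ppm1d (−1.89). Of 30 chaperones, Dnajb1 (−2.36) and Dnajb4 (−1.07) were lower (6.67%, against 13.7% of all genes tested). Hsp90b1, the endoplasmic reticulum form of HSP90, was higher (0.42). It passed in only 1 of the 6 runs that left out a library, that without WT 2 h replicate 1.

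Of 49 genes of the G1/S transition and replication, 6 were lower (12.2%, against 13.7% of all genes tested) and none higher, with a median of 0.04. These were E2f3, a factor that drives S phase entry, the replication licensing factors Orc1, Cdt1 and Cdc6, the replisome subunit Gins3 and the cyclin Ccne1. Cdc6 had 37.0 ± 3.82 CPM at 2 h and 139.1 ± 21.1 CPM at 0 h. Of 40 mitotic genes, 1 was lower (2.5%, against 13.7% of all genes tested), the kinase Aurka (log2 change −1.60 ± 0.49 SE, adjusted p = 0.03134). It did not pass when any one of the 6 libraries was left out. The median of the mitotic list was 0.02, and both medians were below 0 by library size alone and with ribosomal protein scaling. The cyclin Ccnd1 had 251.0, 228.1 and 257.3 CPM at 2 h, against 339.4, 321.9 and 352.7 CPM at 0 h. Its groups did not overlap, but it did not pass (adjusted p = 0.2949). Of 24 noncoding host and nuclear RNAs, 6 were lower (25%, against 13.7% of all genes tested) and none higher, with a median of −0.30. Mir17hg, the host of a microRNA cluster that promotes growth, had 0.490 ± 0.329 CPM at 2 h and 12.6 ± 0.0979 CPM at 0 h, and the snoRNA hosts Snhg5 and Snhg1 had log2 changes of −2.63 and −1.63. Malat1, an abundant nuclear RNA known for its stability, had 4630, 5023 and 4970 CPM at 2 h, against 3485, 4155 and 3768 CPM at 0 h, and did not pass (adjusted p = 0.2359); it passed with the culture as a block (adjusted p = 0.02879), and its change was below 0 with ribosomal protein scaling.

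Rises among well-expressed genes were smaller than the falls. The 10 rises named by the same rule had log2 changes of 0.97 to 1.45. Rbms2, an RNA-binding protein, had 51.2, 55.8 and 50.8 CPM at 2 h, against 18.9, 21.5 and 17.5 CPM at 0 h (log2 change 1.45 ± 0.38 SE, adjusted p = 0.01333), and did not pass without WT 0 h replicate 3. Sirt2, a deacetylase that acts on tubulin and histones, had 102.7, 114.1 and 63.1 CPM at 2 h, against 50.4, 43.8 and 28.5 CPM at 0 h (adjusted p = 0.01035), and did not pass without WT 0 h replicate 3 or WT 2 h replicate 2. Bnip3, a receptor for mitophagy that hypoxia induces, had 710.4, 592.8 and 598.5 CPM at 2 h, against 316.6, 332.6 and 296.1 CPM at 0 h (log2 change 1.01 ± 0.18 SE, adjusted p = 0.0006197). Its groups did not overlap, as the rule required, and it passed with each library left out. The other 7 were Bscl2, which shapes lipid droplets, Ttll1, a tubulin polyglutamylase, Carhsp1, Tspan13, Mccc2, a carboxylase subunit of leucine breakdown, Tst, a mitochondrial sulfurtransferase, and Psme1, an activator of the proteasome. Bscl2, Carhsp1, Tspan13 and Tst each lost their call when some single library was left out. Among them Carhsp1 did so for every one of the 6 libraries.

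Ribosomal protein genes were among the rises. Of 82 genes, 19 were higher (23.2%, against 3.63% of all genes tested) and none lower. A log2 change above 0 was found for 81, and the median was 0.41, against 0.0061 over all genes. With the culture as a block 70 were higher. The count was 5 to 8 when any library other than WT 2 h replicate 1 was left out. It was 7 by library size alone, where the median was 0.26, and 0 with scaling to these same genes, which sets their sum equal. Rpl36 had 215.6, 199.1 and 205.0 CPM at 2 h, against 132.0, 110.6 and 109.4 CPM at 0 h (log2 change 0.82 ± 0.20 SE, adjusted p = 0.007374). Fau, which encodes a ribosomal protein fused to a ubiquitin-like domain, had 267.6, 230.6 and 221.1 CPM at 2 h, against 157.9, 148.3 and 121.4 CPM at 0 h (log2 change 0.75 ± 0.18 SE, adjusted p = 0.006867). Ribosomal protein genes have many processed pseudogenes of near-identical sequence, so reads could be split between a gene and its copies.

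Many ribosomal protein mRNAs begin with a C and a run of pyrimidines, the 5′ terminal oligopyrimidine motif through which growth signals control their translation and stability. Among the promoters searched, a C followed by at least 4 pyrimidines stood at the annotated start in 13 of 60 ribosomal protein genes (21.7%). The share was 2.39% for the genes tested and 2.49% for all promoters searched. Of the 12 ribosomal protein genes that rose and were searched, 3 had such a start. The 4 starts below show the motif in Fau and Rplp2 and its lack at the annotated base in Rps19 and Rpl13a, each with 10 bases before the start, at chr19:6057937-6057961, chr7:141447641-141447665, chr7:24884582-24884606 and chr7:45128731-45128755 (GRCm38.p6; the last on the minus strand and the others on the plus strand). Capitals mark the C at the start and the pyrimidines after it.
Fau: gcccccacttCTTCCTCTTTCTTga
Rplp2: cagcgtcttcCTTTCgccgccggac
Rps19: aatctcgcgagactcgacgcccgac
Rpl13a: cctgcgacaagacctcctcctttcc
The Rpl13a window holds a pyrimidine run a few bases past the annotated start. These 4 had the smallest p among the searched ribosomal protein genes that rose, so their rise was fixed by the choice. Their log2 changes were 0.75, 0.56, 0.69 and 0.52.

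Nuclear genes of oxidative phosphorylation were among the rises as well. Of 74, 35 were higher (47.3%, against 3.63% of all genes tested) and none lower. All 74 had a log2 change above 0, and the median was 0.51. With the culture as a block 65 were higher, and 5 to 14 were higher when any library other than WT 2 h replicate 1 was left out. By library size alone 4 were higher, and none was with ribosomal protein scaling. Ndufc2, a subunit of complex I, had 818.8, 818.1 and 827.6 CPM at 2 h, against 527.8, 518.4 and 512.3 CPM at 0 h (log2 change 0.66 ± 0.16 SE, adjusted p = 0.008491). Atp5h, of the ATP synthase, had a log2 change of 0.52 and Cox6b1, of cytochrome oxidase, of 0.51. Of mRNAs encoded by the mitochondrial genome, 2 of 8 were lower (25%, against 13.7% of all genes tested) and none was higher. The 2 were mt-Nd1 (log2 change −0.50, adjusted p = 0.03878) and mt-Nd3 (−1.35, adjusted p = 0.04102). Both passed in no run that left out one of the 6 libraries.

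In the glycolysis and hypoxia list 8 of 33 were higher (24.2%, against 3.63% of all genes tested) and 2 lower (6.06%, against 13.7%). The median was 0.61, and 17 were higher with the culture as a block. The 8 higher ones without the block were the glycolytic enzymes Gapdh, Pgk1, Pgam1, Pfkm and Gpi1 and the mitochondrial proteins Bnip3, Bnip3l and Higd1a. Gapdh, often used as a reference gene, had 769.7, 749.4 and 776.9 CPM at 2 h, against 482.9, 450.6 and 521.8 CPM at 0 h (log2 change 0.66 ± 0.21 SE, adjusted p = 0.04263). It did not pass when any one of the 6 libraries was left out. The 2 lower members, both known to be induced by hypoxia, were the peptide hormone gene Adm, with 0.546 ± 0.337 CPM at 2 h and 22.8 ± 8.55 CPM at 0 h, and Ankrd37. The count of higher members was 3 to 5 with each library left out. Actb, another reference gene, had 4658, 4685 and 5124 CPM at 2 h, against 3520, 3539 and 3791 CPM at 0 h, and did not pass (adjusted p = 0.235). Of 32 proteasome subunits 1 was higher (3.12%, against 3.63% of all genes tested), Psmd8 (log2 change 0.55), and 12 were with the culture as a block. The proteasome median was 0.26 and was below 0 with ribosomal protein scaling. Of 29 cholesterol synthesis genes, Tm7sf2 was higher (0.78) and Sc4mol lower (−0.76). Each is 3.45% of the list, against 3.63% higher and 13.7% lower over all genes tested. Of 28 SR proteins and splicing factors, Clk1 (−1.04) and Ptbp1 (−0.73) were lower (7.14%, against 13.7% of all genes tested).

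Markers of cell state were measured beside these groups. Over all genes tested, 13.7% were lower and 3.63% higher. Of 38 markers of quiescent neural stem cells, 4 were higher (10.5%), namely Dbi, Scg3, Nfix and Ttyh1. Another 3 were lower (7.89%), namely Id3, Id2 and Sox9. The median of the quiescent list was 0.52, and 19 were higher and 4 lower with the culture as a block. Their summed level was 34000 to 40600 CPM at 2 h and 24300 to 29000 CPM at 0 h. Of 18 astrocyte markers 2 were higher (11.1%), Atp1b2 and Acsbg1, and 1 lower (5.56%), Sox9, with a median of 0.62. With the block 12 were higher. The summed astrocyte list was 11100 to 16600 CPM at 2 h and 8710 to 12000 CPM at 0 h. Of 17 neuron markers 2 were higher (11.8%), Dcx and Stmn2, with a median of 0.37 that was below 0 with ribosomal protein scaling (−0.03). The summed neuron list was 1630 to 1760 CPM at 2 h and 1310 to 1440 CPM at 0 h. Of 14 oligodendrocyte lineage markers, Olig2 and Sox10 were lower (14.3%, near the 13.7% of all genes tested) and Cnp higher (7.14%). The summed oligodendrocyte list was 548 to 758 CPM at 2 h and 556 to 699 CPM at 0 h. The summed microglia list was 32.8 to 35.6 CPM at 2 h and 26.4 to 30.8 CPM at 0 h. The summed endothelial and pericyte list was 9.10 to 11.2 CPM at 2 h and 12.2 to 15.8 CPM at 0 h. Of its 7 tested members 1 was lower, Mcam (14.3%, near the 13.7% of all genes tested). No tested member of the 12 fibroblast or the 8 ependymal markers passed. Their summed levels were 11.7 to 19 CPM at 2 h and 31.8 to 34.8 CPM at 0 h for fibroblasts, and 11.3 to 15.1 CPM at 2 h and 7.42 to 11.5 CPM at 0 h for ependymal cells. The part of other cell types in the changes above was not tested.

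The largest rises belonged to another kind of gene. Of the 27 genes that rose by more than 4-fold, 15 (55.6%) are annotated as pseudogenes, against 1.43% of the genes tested, and 11 are protein-coding. None of the 199 genes that fell by more than 8-fold is annotated as a pseudogene. Gm6404 had 24 to 40 counts in the WT 2 h libraries and 0 in each WT 0 h library, and 22 to 27 counts at 2 h and 0 at 0 h in the cKO-labelled libraries. Zfhx4, a zinc finger homeobox factor, had 121 to 258 counts at WT 2 h and 0 to 2 at WT 0 h, and 63 to 184 counts at WT 4 h. In the 15 pull-down and input libraries, made from WT cells, Zfhx4 had 0 to 25 counts. Stmn2, a neuronal tubulin-binding protein, had 185 to 393 counts at WT 2 h and 12 to 32 at WT 0 h, but 169 to 443 in the pull-down and input libraries. These rises moved with the set of libraries made at 0 h in both labelled genotypes, and whether they come from the cells was not tested.

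Several of the genes that fell most lost little more after 2 h. The change per 2 h was compared between the early interval, 0 to 2 h, and the late one, 2 to 4 h, by a test of their difference. It was lower (a deeper early fall, or a smaller early rise) for 44 genes (0.314%) and higher for 6 (0.0428%). Bhlhe40 averaged 117 CPM at 0 h, 4.32 CPM at 2 h and 4.60 CPM at 4 h, so that the late log2 change was 0.10 and the difference −4.86 ± 0.60 SE (adjusted p = 0.0007333). Spry4 averaged 249.3 CPM at 0 h, 17.5 CPM at 2 h and 24.6 CPM at 4 h (late log2 change 0.49, difference −4.32, adjusted p = 0.0005004). Klf10 and Spry2 likewise had late changes of 0.18 and 0.10 and differences of −3.98 and −3.86, and Plk2 had −0.69 and −4.04. The 44 also held Klf6, Dusp6, Dusp10, Egr1, Fosl2, Adm and Nfkbia, and several C2H2 zinc finger genes, among them Zfp87 and Zfp189. Sgk1 and Rnd3 were among the 44 too but had late changes of −1.09 (adjusted p = 0.08497) and −1.32 (adjusted p = 0.01404). The genes on the other side included Gm5620, Stmn2, Rpl39l, Zfhx4 and Gm6404, which were near 0 or low in the 0 h libraries.

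Other genes went on falling. Olig2 averaged 106.7 CPM at 0 h and kept 16.5% at 2 h and 5.63% at 4 h, Foxo1 kept 24.9% and 10.04%, and Sox2 had 5.78, 6.97 and 9.70 CPM at 4 h. The ribosomal protein list had a median log2 change of 0.41 at 2 h and 0.75 at 4 h, both against 0 h, and the OXPHOS list 0.51 and 0.90; the 2 time points share the 0 h libraries. From 2 h to 4 h, 324 genes (2.31%) were lower and 5 (0.0356%) higher. The number of genes with a deeper early fall was 10 to 42 with single libraries left out: it was 10, 16 and 12 without WT 2 h replicates 1, 2 and 3, 28, 29 and 26 without WT 0 h replicates 1, 2 and 3, and 23 without WT 4 h replicate 3. With the culture as a block it was 184. The number on the other side was 3 without WT 2 h replicate 3 and 15 with the block.

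**Figure D3:**
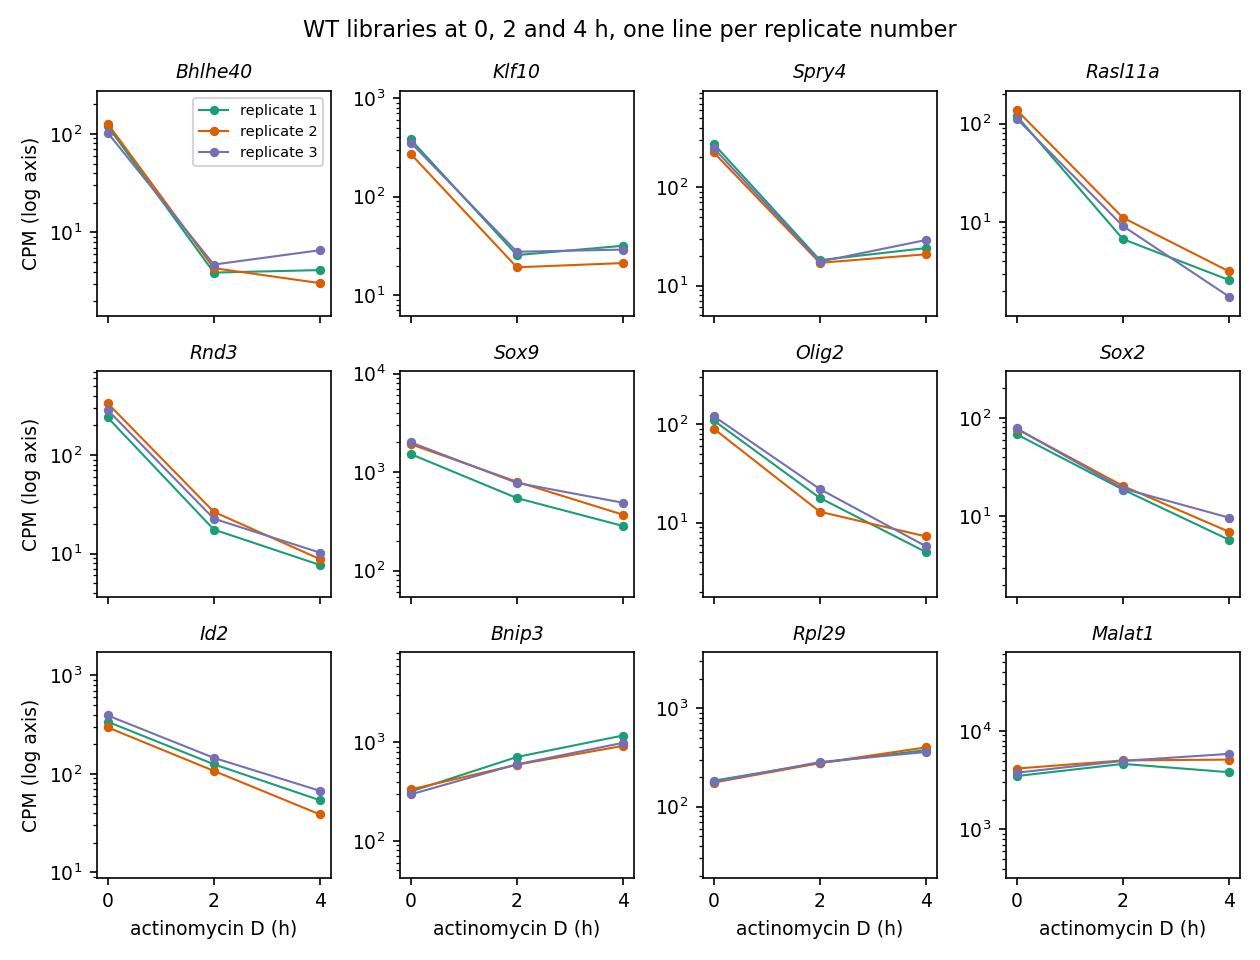
Level in CPM (log axis) at 0, 2 and 4 h of actinomycin D in WT libraries for 12 genes, with a point per library and a line per replicate number. Bhlhe40, Klf10 and Spry4 reach their low level by 2 h, Olig2, Sox2 and Rasl11a go on falling to 4 h, and Bnip3 and Rpl29 gain share at both times.

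The libraries labelled cKO share no library with the WT comparison, but both comparisons used the same estimate of spread over all 18 RNA-seq libraries. In those, 1382 genes (9.85%) were lower at 2 h than at 0 h and 310 (2.21%) higher. Of the genes lower in WT, 1107 were also lower in cKO-labelled cells, which is 57.5% of the WT list and 80.1% of the cKO-labelled list. Of those higher, 151 were shared, 29.7% of the WT list and 48.7% of the cKO-labelled list. The 1926 WT falls had a median log2 change of −1.57 in WT and −1.14 in cKO-labelled cells, and 1875 of them were below 0 there; the 509 WT rises had medians of 0.67 in WT and 0.48 in cKO-labelled cells. Across the 6104 genes that averaged 4 log2 CPM or more, the WT and cKO-labelled changes had a Pearson r of 0.851 and a Spearman correlation of 0.783, and across all 14029 genes tested these were 0.751 and 0.707. The genes were measured in libraries of one experiment and are not independent.

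No gene differed in its early change between the labelled genotypes in edgeR after adjustment (0 lower and 0 higher of 14029), and 575 (4.1%) had an unadjusted p under 0.05. DESeq2 called 3 lower and 5 higher. Ythdf2 itself had a log2 change of −1.70 in WT and −0.45 in cKO-labelled cells (difference −1.26 ± 0.49 SE, unadjusted p = 0.02073, adjusted p = 0.9999). The cKO-labelled libraries held more Ythdf2 than the WT libraries, at 1196 ± 99.3 CPM at 2 h and 1629 ± 1297 CPM at 0 h, so the counts went against the label, and the labelled difference is not read as a direction of YTHDF2 loss. Among other genes, Hes5 had a log2 change of −3.92 in WT and −0.84 in cKO-labelled cells (adjusted p = 0.6769), where it had only 0.828, 0.375 and 0.319 CPM at 0 h, and Olig2 had −2.60 in WT and −1.28 in cKO-labelled cells (adjusted p = 0.9999). The Notch factor Hes1 had −3.31 in WT and −3.87 in cKO-labelled cells. The TGF-beta list had a median of −1.05 in WT and −0.51 in cKO-labelled cells, with 15 and 7 members lower, and the immediate early list had medians of −2.65 and −3.15, with 21 and 26 lower. The C2H2 zinc finger list had 60 lower in WT and 52 in cKO-labelled cells. These list differences were not tested.

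**Figure D4:**
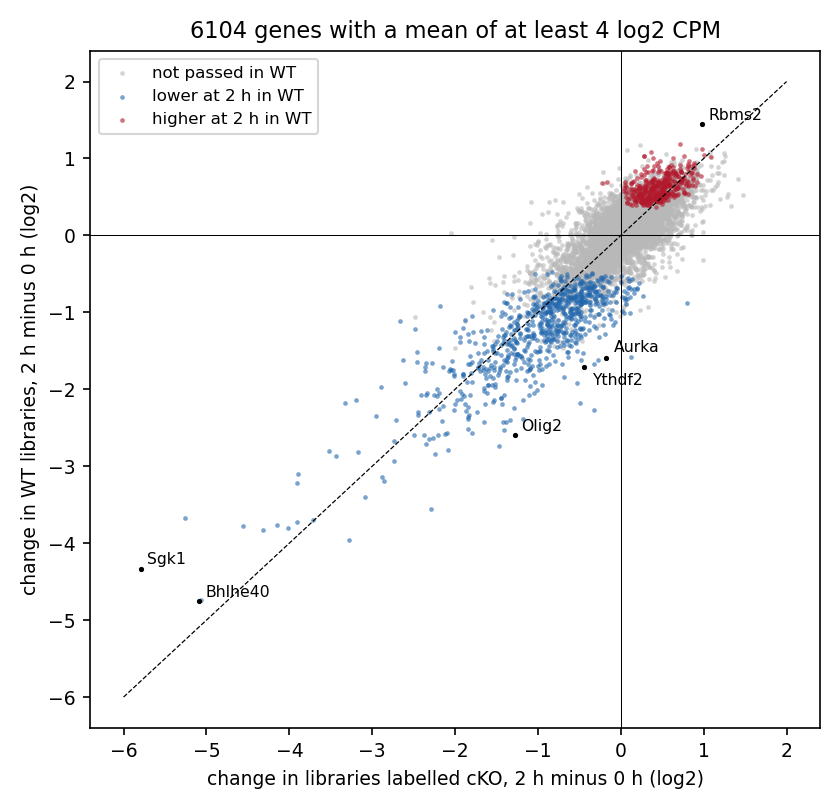
Log2 change at 2 h against 0 h in WT libraries (vertical axis) and in cKO-labelled libraries (horizontal axis) for the 6104 genes that averaged 4 log2 CPM or more, with genes called in WT in colour and the line of equality. Bhlhe40 lies near the line at the lower left, and Ythdf2 lies below it, at −1.70 in WT and −0.45 in cKO-labelled libraries.

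The pull-down libraries gave readouts that were not used to find the early change. In WT cells 858 genes (6.06%) of 14167 were higher and 2023 (14.3%) lower in the m6A pull-down than in its input. The number higher was 370 and 347 without m6A replicates 1 and 3, 557 and 343 without input replicates 1 and 3, and 2441 with the replicate block. Genes that fell had a higher median m6A ratio than genes that did not pass, and genes that rose a lower one. The median log2 ratio of pull-down over input was 0.22 for genes that fell by more than 4-fold (576 of 603 measured). It was 0.16 for those that fell by less (1322 of 1323), −0.40 for those that rose (487 of 509) and −0.01 for those that did not pass (10965 of 11594). Of these classes, 10.8%, 14.4%, 1.44% and 5.42% of measured genes were higher in the pull-down. Among those that rose, 54.8% were lower in the pull-down. Named falls that passed as higher included Myc (log2 ratio 0.39), Dusp6 (0.81), Rnd3 (0.42) and Setd2 (0.24), whereas Bhlhe40 (0.30, adjusted p = 0.327) and Klf10 (0.24, adjusted p = 0.0696) did not pass. Of the 10 largest falls, Rnd3 passed and the others did not. Zfp36l2, which also fell, passed as lower (−0.86, adjusted p = 0.02064). Fau (−1.28), Rpl36 (−1.21) and Ndufc2 (−1.42) passed as lower.

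Length and level moved with the same classes. The median relative transcript length, taken from the ratio of counts to TPM and set to 1 over all genes, was 1.09 for deep falls, 1.37 for shallower falls, 0.529 for rises and 0.956 for genes that did not pass. The median level at 0 h was 5.75, 11.8, 62.3 and 7.37 TPM. Within 3 length bins of equal gene number, falls again had the higher m6A ratio: the median was 0.14 for deep falls and −0.61 for rises among the shortest transcripts, 0.21 and −0.18 in the middle bin, and 0.27 and −0.01 among the longest. Of the shortest transcripts 7.41% fell and 7.68% rose, against 21.4% and 1.04% of the longest. Across genes, the early log2 change had a Spearman correlation of −0.317 with the m6A ratio (13350 genes) and −0.299 with length (13412 genes), and the m6A ratio had 0.415 with length (12952 genes). The part of length and level in the m6A difference was not otherwise tested.

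**Figure D5:**
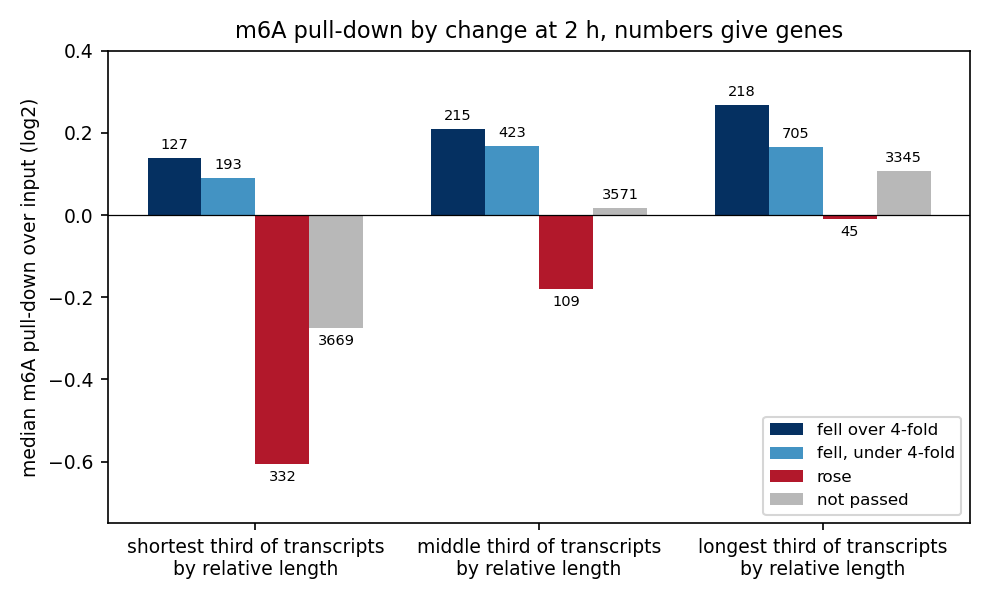
Median log2 ratio of the m6A pull-down over input (vertical axis) for genes that fell by more than 4-fold, fell by less, rose or did not pass at 2 h, within 3 bins of relative transcript length (horizontal axis), with the number of genes on each bar. The bars of genes that fell are above 0 in all 3 bins and those of genes that rose are below 0, at −0.61 among the shortest and −0.01 among the longest transcripts.

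In the YTHDF2 pull-down 2040 genes (14.3%) of 14255 were higher than in IgG and 47 (0.33%) lower. The median log2 ratio was 0.77 for deep falls, 0.22 for shallower falls, −0.25 for rises and −0.11 for genes that did not pass. Spry2 (1.37) and Rpp38 (1.03) passed as higher, and Bhlhe40 (0.74, adjusted p = 0.0848) did not. The sample titles and descriptions name the YTHDF2 and input libraries the other way round, and by the titles these class medians took the other sign (−0.21, −0.31, 0.48 and 0.07), so no direction is drawn from this pull-down.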

How the data were processed

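Each of the 33 libraries is a column of gene counts deposited by the authors over 26621 symbols, with a TPM table deposited beside it. Per the submitters' processing notes, the tools were bcl2fastq 2.17.1.14, Trimmomatic 0.32 and STAR 2.5.2a with GRCm38. For the counting tool, the annotation and the strand setting, nothing was found: they are not given in the sources used. Without a stated strand, overlapping and antisense genes cannot be told apart. RNA-seq libraries used SMART-seq2 and the pull-downs a modified SMART-seq3, per the labels' protocols. The deposited TPM values served for relative length, levels and an alternative. RefSeq (GRCm38.p6) held 22003 of the symbols by name and 24557 by name or synonym.

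Counts of all 18 RNA-seq libraries were fitted together with edgeR 4.0.16 (R 4.3.3; TMM, filterByExpr, quasi-likelihood, 12 residual degrees of freedom), with two-sided contrasts and Benjamini-Hochberg adjustment over all genes tested at 0.05. The m6A and YTHDF2 assays were fitted alone. Libraries with the same replicate number deviated together (r = 0.286, 0.188 and 0.153 between WT 2 h and 0 h, against −0.175 to −0.0161 across numbers), so the numbers were taken to pair cultures. Xist was high in replicate 1 and Ddx3y in replicates 2 and 3 at every WT time. These marks set replicate 1 apart but do not tell replicates 2 and 3 from each other. The part of sex in the runs without replicate 1 was not tested. The fit with the culture as a block is an alternative. Other alternatives changed the tool (DESeq2 1.42.0; limma 3.58.1 on log2(TPM + 1)), the scaling (RLE, library size, ribosomal protein genes), the low-count filter or the libraries fitted (the compared ones, or all but one); protein-coding genes alone and the compared libraries with a block were added after seeing the data. Named genes were the 10 largest falls and rises averaging 4 log2 CPM or more, with no overlap and a proper gene symbol, the 3 members of each of 34 lists with the smallest p, a fixed set, and the 5 largest differences between intervals in each direction; other list members were chosen after their values were seen. The comparison and the lists were chosen with earlier results of these data known. The scripts were tested on simulated data. A few genes are not reported here.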

Additional observations from a re-analysis of the deposited data

Results flagged for a closer look

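The change per 2 h differed between the early and the late interval, by the test of the difference itself, most in 5 of the well-expressed genes named by rule; others, such as Klf6, Rpp38, Sgk1 and Rnd3, passed with smaller differences. The early minus late log2 changes in WT were −4.86 for Bhlhe40, −4.32 for Spry4, −4.04 for Plk2, −3.98 for Klf10 and −3.86 for Spry2, with adjusted p-values of 0.0007333, 0.0005004, 0.03629, 0.0005004 and 0.008538. From 2 h to 4 h their log2 changes were between −0.69 (Plk2) and 0.49 (Spry4). The 2 intervals share the 2 h libraries.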

How the results depend on the processing

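Of 14029 genes, 1926 were lower; 3485 were with ribosomal protein scaling, 3160 in limma on TPM, 3596 in the 6 libraries alone, 3401 with the replicate block and library size alone, 4078 with the 6 libraries and the block, and 1189 to 1509 with single libraries left out. The 509 higher genes were 1124 in DESeq2, 780 with RLE factors, 162 by library size, 27 with ribosomal protein scaling, 90 in limma, 2932 in the 6 libraries, 1910 with the replicate block, 946 with block and library size, 910 among protein-coding genes, 3716 with the 6 libraries and block, and 164 to 380 with single libraries left out. Past 2-fold, 1547 were lower (2642 with ribosomal protein scaling, 1082 to 1312 with libraries left out) and 79 higher (151 in DESeq2, 42 by library size, 25 with ribosomal protein scaling, 21 in limma, 200 in the 6 libraries, 186 with the block, 220 with both, 32 to 65 with libraries left out). The early fall was deeper than the late one for 44 genes (175 in DESeq2, 371 in limma, 513 in the 9 WT libraries, 184 with the block, 153 with block and library size, 10 to 42 with libraries left out), and the reverse held for 6 (11, 13, 71, 15 and 15 in the same order, 2 among protein-coding genes, 3 to 5 with libraries left out). The genotype difference had 0 lower genes (3 in DESeq2, 10 in limma, 2 with block and library size, 0 to 1 with libraries left out) and 0 higher (5, 9, and 0 to 2). The m6A pull-down had 858 higher genes (2441 with the block, 343 to 841 with libraries left out) and 2023 lower (1477 to 1934). The YTHDF2 pull-down had 47 lower genes (2873 by titles, 1268 with the block, 10 to 60 with libraries left out) and 2040 higher (3134 with the block, 1516 to 2183). The sign turned for P2ry12 (−0.24 with ribosomal protein scaling, −0.0871 in limma, −0.0216 with block and library size, −0.28 to 0.39 with libraries left out), Psmd4 (−0.0428), Psmb2 (−0.0978), Tgfb2 (−0.0931) and Malat1 (−0.0515) with ribosomal protein scaling, Tgfbr3 (−0.67 to 0.14 with libraries left out) and Mettl3 (0.0055 in DESeq2, 0.0054 with RLE factors, 0.0098 without the filter, 0.0324 among protein-coding genes, −0.0945 to 0.0561 with libraries left out). None of these 7 passed in the edgeR fit of 18 libraries without a block. In DESeq2 Psmd4 (adjusted p = 0.03952) and Psmb2 (0.03012) passed, and Psmb2 also did among protein-coding genes alone in edgeR (0.04531). In the 6 libraries alone Tgfb2, Malat1, Psmd4, Psmb2, Smad4, Ski, Ccnd1, Actb and Mettl14 passed, and with the block the first 4 of them did. The cause was not tested. Depth limits the genes with few counts at 2 h. For Smad7 and Tgfbr2 the sizes of change are not given, and those given for others, such as Ephb3 and Hes5, rest on few counts.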
